A study of Homo sapiens with 26 samples.

Results

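The FASTK family comprises nuclear-encoded RNA-binding proteins of the mitochondrial matrix that share one fold. The members examined were FASTK, FASTKD1, FASTKD2, FASTKD3, FASTKD5 and TBRG4, which is also known as FASTKD4. They were taken by name as a family and not by any measured value, and they make up 6 of the 60663 genes of the RNA-seq tables. All 6 had counts in every RNA-seq library, and 5 had an entry of their own in the ribosome profiling tables. All 6 are on the list of nuclear-encoded mitochondrial genes that the study used.

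Family members are made by cytosolic ribosomes, imported into mitochondria and act there on transcripts of the mitochondrial genome. They carry the FAST domains that name the family and a C-terminal RAP domain. FASTK is required for the mRNA of the complex I subunit ND6, FASTKD2 associates with the large mitochondrial rRNA and supports assembly of the mitochondrial ribosome, and FASTKD5 is needed to mature precursors that are not flanked by a tRNA. TBRG4 stabilizes a subset of mitochondrial mRNAs, and FASTKD1 and FASTKD3 affect the levels of particular mitochondrial transcripts.

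The data come from LOCL-TL, in which a light-activated biotin ligase (LOV-BirA) labels ribosomes near the place where the ligase is anchored. All cells were HEK293T, a human embryonic kidney line, with an AviTag on the endogenous ribosomal protein RPL29. Ribosome profiling used 3 polyclonal lines, with the ligase at the ER (fused to Sec61β, SFFV promoter), at the outer mitochondrial membrane (OMM, OMP25 anchor, EF1α promoter) or free in the cytosol, each with 2 replicates of a total input and a streptavidin pulldown, 12 libraries in all. RNA-seq of intact mRNAs used the OMM ligase in 14 libraries.

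The RNA-seq groups were cells with a negative control guide RNA (wild type), AKAP1 null cells and LARP4 null cells, each with 2 replicates and cycloheximide, and cells without cycloheximide with 1 replicate. AKAP1 is an RNA-binding protein anchored in the OMM, and LARP4 is an RNA-binding protein that associates with poly(A) tails. Each null genotype was a single clone, so clone and genotype cannot be told apart. The light pulse was also shorter in the cells without cycloheximide, and their labels name no guide RNA. Drug, pulse and any difference in guide or line from wild type therefore cannot be told apart. The study calls the OMM footprint replicates biological, and for the other groups the sources used here do not say whether replicates were separate cultures. The p-values there measure the spread between these samples, which may be technical. Footprint fits shared an estimate of spread over all 12 libraries, so the OMM p-values also rest on the ER and cytosol samples.

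AKAP1 stood at 32.2 and 20.3 CPM (counts scaled to the library total) in the AKAP1 null total inputs, against 115 and 119 CPM in wild type (log2 difference -2.15, adjusted p = 0.242). LARP4 stood at 79.3 and 74.0 CPM in the LARP4 null total inputs, against 225 and 231 CPM (-1.56, adjusted p = 0.0405). Footprints in the coding sequence (CDS) totalled 4485509 to 15820989 in the total inputs and 1025114 to 19539527 in the pulldowns. RNA-seq counts totalled 38347615 to 100840544 in the total inputs and 48094925 to 63646523 in the pulldowns. The 13 mRNAs of the mitochondrial genome, on which the family acts, were listed at 0 in all 14 RNA-seq libraries, so their mRNA levels could not be examined there.

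The members lie on 4 chromosomes (GRCh38, GENCODE 44). FASTK (ENSG00000164896, chr7:151076624-151080866, minus strand) encodes 549 residues, and TBRG4 (ENSG00000136270, chr7:45100100-45112047, minus strand) encodes 631. FASTKD1 (ENSG00000138399, chr2:169528508-169573875, minus strand) encodes 847 residues, and FASTKD2 (ENSG00000118246, chr2:206765357-206796189, plus strand) encodes 710. FASTKD3 (ENSG00000124279, chr5:7859159-7869037, minus strand) encodes 662 residues, and FASTKD5 (ENSG00000215251, chr20:3146519-3159865, minus strand) encodes 764. All are above the 400 residues used below to mark long mitochondrial proteins.

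Some members share bases with neighbours, and for some the number of footprint positions counted differs from the CDS length. The ribosome profiling tables merge FASTKD5 with the overlapping gene UBOX5, so its footprints cannot be separated from those of UBOX5. In RNA-seq, 3.52% of the exon bases of FASTKD5 overlap UBOX5 on the same strand, 2.27% of those of TBRG4 overlap the small nucleolar RNA gene SNORA5B, and 3.5% of those of FASTKD3 lie antisense to MTRR. Footprints of FASTKD3 were counted over 856 of the 1989 bases of its CDS and those of FASTKD1 over 1879 of 2544, whereas FASTKD2 was counted over all 2133.

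The paralogs have diverged in sequence. Over the 15 pairs, identity across aligned residues ranged from 22.9% (FASTKD2 and TBRG4) to 31.8% (FASTK and TBRG4), with a median of 29.5%. FASTKD1 and FASTKD2, the members with the highest footprint enrichment at the OMM, stood at that median. Within the first 100 residues every member had a net positive charge (lysine and arginine minus aspartate and glutamate), from 2 in TBRG4 to 10 in FASTKD5. In the stretch that follows, up to residue 250, the net charge was 7 in FASTK and 5 in FASTKD2, and it was negative in the others, at -2 in TBRG4, -3 in FASTKD1, -7 in FASTKD3 and -10 in FASTKD5.

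TBRG4 had the highest footprint level of the family. In RPKM of the CDS (reads per kilobase of CDS, scaled for library size), TBRG4 stood at 34.7 ± 7.98 (SD, n = 6 total inputs from 3 lines), with a range of 25.6 to 46.5. FASTKD2 followed at 15.97 ± 3.95, FASTKD3 at 12.03 ± 2.12, FASTKD1 at 7.16 ± 2.41 and FASTK at 6.07 ± 1.71. TBRG4 was above FASTKD2 in 6 of 6 inputs with no overlap of their ranges, while the ranges of the other neighbours in this order overlapped. Over all exons instead of the CDS, FASTKD3 (6.87 RPKM) was above FASTKD2 (4.38 RPKM) and TBRG4 was still first (14.3 RPKM). The merged UBOX5 and FASTKD5 entry stood at 10.01 ± 2.79 over the CDS. The median over the 688 nuclear mitochondrial genes with at least 64 footprints in each OMM total input was 49.96 RPKM, above every member.

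The order by mRNA was different. In FPKM, computed from counts and gene length, FASTKD5 was highest at 14.9 ± 2.51 (SD, n = 7 total inputs), with TBRG4 at 10.3 ± 1.36, FASTKD1 at 10.1 ± 1.27, FASTKD3 at 9.29 ± 1.09, FASTK at 6.53 ± 1.4 and FASTKD2 at 6.13 ± 1.07. FASTKD5 was above TBRG4 in 7 of 7 inputs, although the ranges of all neighbours in this order overlapped. The 7 inputs pool wild-type, AKAP1 null and LARP4 null cells and cells without cycloheximide. FASTKD2 had the lowest mean mRNA level per length, but FASTK was above it in only 4 of 7 inputs. FASTK was below FASTKD2 in both LARP4 null inputs (4.86 and 4.55 against 6.19 and 7.25 FPKM). It was also below without cycloheximide (6.30 against 7.85 FPKM). By footprints per length FASTKD2 had the second highest mean, in different lines and assays. Gene lengths here cover the exons of all isoforms, 9759 bases for FASTKD2 against 2842 for FASTKD5.

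**Figure D1:**
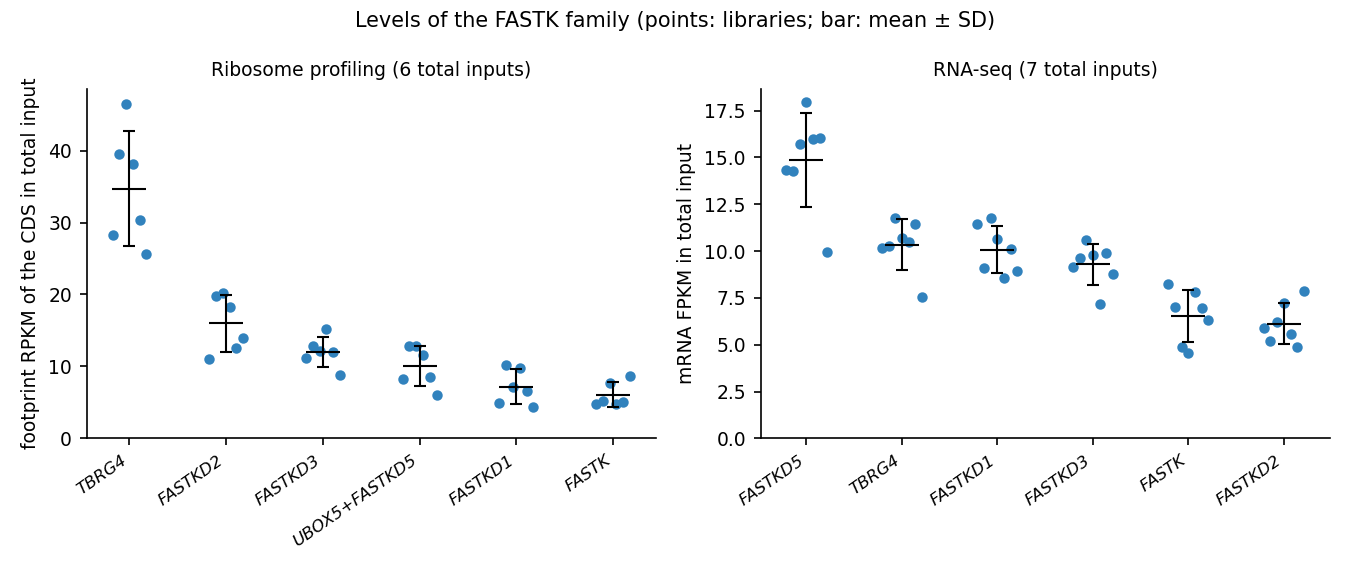
Levels of the members in the total inputs. Each point is a library, and the bar is the mean ± SD over 6 ribosome profiling inputs (left, RPKM of the CDS) or 7 RNA-seq inputs (right, FPKM). TBRG4 stands apart in footprints at 25.6 to 46.5 RPKM, and FASTKD5 has the highest mean mRNA level at 14.9 FPKM.

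At the OMM the paralogs were spread widely by their footprints. FASTKD2 and FASTKD1 were enriched, FASTKD3 was depleted, and FASTK and TBRG4 did not pass the test. Enrichment is the log2 ratio of pulldown to total input, each scaled to its library total, so 0 means an equal share of both libraries. The test was edgeR's quasi-likelihood test with Benjamini-Hochberg adjustment over 6728 genes, of which 17.0% were called enriched and 46.1% depleted at an adjusted p of 0.05 (1145 and 3101 genes, against 1814 and 1477 with TMM factors, which centre most genes near 0). Of the 5 members tested 2 were enriched and 1 was depleted, and their median was 0.56 against -0.38 over all genes tested. Of the 242 nuclear mitochondrial genes with proteins over 400 residues, 47.5% were enriched and 15.7% depleted, with a median of 0.29.

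FASTKD2 stood at a log2 enrichment of 2.33 in replicate 1 and 2.34 in replicate 2, from 472 and 467 footprints in the inputs and 479 and 1084 in the pulldowns. These nearly equal values gave a fitted enrichment of 2.34 ± 0.11 (SE, adjusted p = 9.08e-11, edgeR), a fold of 5.05, at rank 32 of 6728 genes. FASTKD1 stood at 2.14 and 1.74, from 146 and 219 footprints in the inputs and 129 and 337 in the pulldowns. Its fitted enrichment was 1.91 ± 0.16 (adjusted p = 5.90e-08, edgeR), a fold of 3.76, at rank 75. Both genes kept these calls in all 11 alternatives, over 2.15 to 2.697 for FASTKD2 and 1.61 to 2.28 for FASTKD1.

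The replicates of FASTK disagreed. With 135.5 and 92.6 footprints in the inputs and 55.4 and 43.9 in the pulldowns, FASTK stood at 1.03 and 0.05, and its fitted enrichment was 0.56 ± 0.26 (adjusted p = 0.0717, edgeR). It was 0.04 without replicate 1 and 1.02 without replicate 2 (adjusted p = 0.929 and 0.0282), and 0.91 with TMM factors (adjusted p = 0.0119).

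TBRG4 had more footprints in the OMM total inputs than any other member and did not pass the test. It stood at -0.13 and -0.07, from 984 and 886 footprints in the inputs and 181 and 387 in the pulldowns. Its fitted value was -0.10 ± 0.11 (adjusted p = 0.438, edgeR), and it turned to 0.25 with TMM factors (adjusted p = 0.0560).

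FASTKD3 was the lowest member, at -0.57 and -0.63, on 15 and 46 footprints in the pulldowns. Its fitted value was -0.63 ± 0.21 (adjusted p = 0.0172, edgeR). TMM factors raised the median of all genes by 0.35 and gave FASTKD3 -0.28 (adjusted p = 0.282), and leaving out either OMM replicate also ended the call (adjusted p = 0.0545 and 0.188). The merged UBOX5 and FASTKD5 entry stood at 0.81 and 0.55, with a fitted value of 0.67 ± 0.12 when merged entries were tested too (adjusted p = 0.000235, edgeR), which cannot be assigned to either gene.

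The order of the members was the same in both OMM replicates, with FASTKD2 first, then FASTKD1, FASTK, TBRG4 and FASTKD3. The distance from first to last was 2.91 and 2.97. FASTKD2 exceeded FASTKD1 by 0.20 and 0.59 (fitted difference 0.42 ± 0.19, with the SEs of both genes combined as if independent). The step from FASTKD1 to FASTK was 1.10 and 1.69 (1.35 ± 0.31), and that from FASTKD1 to TBRG4 was 2.26 and 1.82 (2.01 ± 0.19). With 2 replicates an exact test of a difference between paralogs cannot pass 0.05, so none is given.

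**Figure D2:**
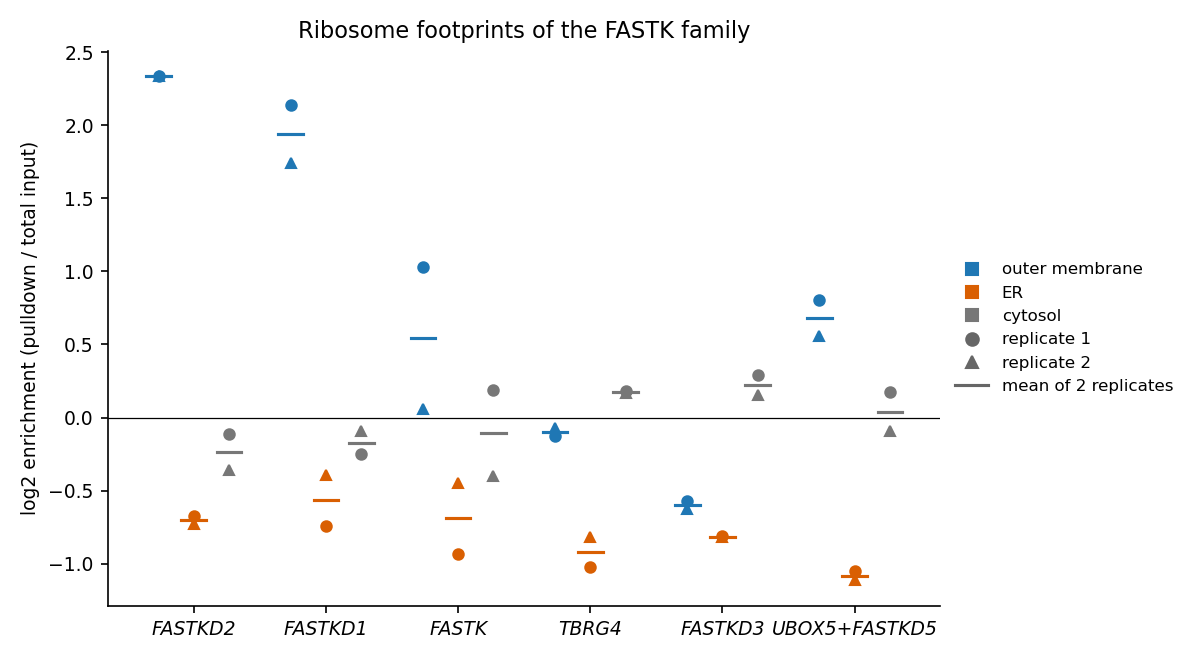
Log2 footprint enrichment of each member at the OMM, the ER and in the cytosol. Points are the 2 replicates, lines their mean, and 0 marks an equal share of pulldown and total input by library totals. FASTKD2 (2.33 and 2.34) and FASTKD1 (2.14 and 1.74) are high at the OMM, and all ER values lie below 0 on this scale.

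At the ER every member was depleted, as most genes were. All 5 passed the test downwards, where 72.1% of 7381 genes did (1465 genes higher and 5321 lower, against 2190 and 1800 with TMM factors). Fitted values ran from -0.56 ± 0.15 for FASTKD1 to -0.92 ± 0.10 for TBRG4, and the 10 replicate values from -0.39 to -1.02. The median over all genes was -0.68, within the range of the members. TMM factors moved that median by 0.66, and TBRG4 was then the 1 member still depleted (-0.26, adjusted p = 0.0232, edgeR), while FASTKD1 turned to 0.09. Without ER replicate 1 FASTK and FASTKD1 did not pass on the scale of library totals (adjusted p = 0.187 and 0.109).

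With the ligase in the cytosol no member was called, and 7.99% of 7162 genes were called in either direction. Fitted values ran from -0.22 ± 0.11 for FASTKD2 to 0.24 ± 0.15 for FASTKD3, the lowest adjusted p being 0.251 (edgeR). At an unadjusted p of 0.05 edgeR's quasi-likelihood test picked out 1519 genes and no member. TBRG4 stood at 0.18 and 0.17 and FASTKD3 at 0.29 and 0.15, whereas FASTKD1 and FASTKD2 were below 0 in both replicates.

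Footprints were then compared between locations, by the difference of the pulldown effects in the same fit. Enrichment was higher at the OMM than at the ER for 4 of 5 members, against 31.2% of 6675 genes (2084 higher and 1241 lower, or 1061 and 1425 with TMM factors). Of the 241 nuclear mitochondrial genes with proteins over 400 residues tested, 66.0% were higher, with a median of 0.74. The difference was 3.03 ± 0.15 for FASTKD2 (adjusted p = 2.81e-10), 2.48 ± 0.22 for FASTKD1 (4.57e-08), 1.28 ± 0.33 for FASTK (0.00404) and 0.82 ± 0.15 for TBRG4 (0.000140). FASTKD3 differed by 0.18 ± 0.26 (adjusted p = 0.588) and by -0.07 with TMM factors. The FASTK value was 0.76 without OMM replicate 1 (adjusted p = 0.147) and 1.01 without ER replicate 1 (0.0638).

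Against the cytosolic ligase, FASTKD2 was higher at the OMM by 2.56 ± 0.15 (adjusted p = 4.59e-09) and FASTKD1 by 2.1 ± 0.22 (1.90e-06), where 16.5% of 6465 genes were higher and 40.0% lower (1069 and 2583 genes, or 1672 and 1222 with TMM factors). FASTKD3 was lower by 0.87 ± 0.26 (adjusted p = 0.00911), a call that was lost with TMM factors (adjusted p = 0.109) and without OMM replicate 2 (0.0975). FASTK at 0.64 ± 0.32 and TBRG4 at -0.27 ± 0.15 did not pass (adjusted p = 0.0990 and 0.119), and TBRG4 turned to 0.08 with TMM factors. FASTK passed without OMM replicate 2 (1.10, adjusted p = 0.0353), without cytosol replicate 1 (0.96, 0.0127) and with TMM factors (1.00, 0.0232).

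At the ER 4 of 5 members were lower than in the cytosol, against 63.0% of 6809 genes (1337 higher and 4290 lower, or 1927 and 1480 with TMM factors). The differences were -1.10 ± 0.14 for TBRG4, -1.05 ± 0.21 for FASTKD3, -0.63 ± 0.28 for FASTK and -0.47 ± 0.15 for FASTKD2, and FASTKD1 did not pass at -0.38 ± 0.21 (adjusted p = 0.106). With TMM factors only TBRG4 was called (-0.48, adjusted p = 0.00707), and FASTKD1 and FASTKD2 turned to 0.24 and 0.14. Without cytosol replicate 1 FASTK and FASTKD2 did not pass (adjusted p = 0.287 and 0.0735), nor did FASTK without ER replicate 1 (0.383) or FASTKD2 without ER replicate 2 (0.0527). The 3 comparisons between locations share libraries with each other.

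Intact mRNAs at the wild-type OMM spread less than the footprints. FASTKD2 and FASTK were enriched, FASTKD3 was depleted, and FASTKD1, FASTKD5 and TBRG4 did not pass, in edgeR's quasi-likelihood test over 13856 genes of which 20.2% were called enriched and 45.6% depleted (2803 and 6324 genes, or 4296 and 3847 with TMM factors). FASTKD2 had 2212 and 2339 counts in the inputs and 4357 and 5112 in the pulldowns, log2 values of 0.51 and 0.85, and a fitted value of 0.68 ± 0.14 (adjusted p = 0.00297). FASTK had 1205 and 1223 counts in the inputs and 2095 and 2114 in the pulldowns, log2 values of 0.33 and 0.51, and a fitted value of 0.42 ± 0.09 (adjusted p = 0.00400). Both genes were above 0 in each replicate, but no member passed without wild-type replicate 2 (adjusted p = 0.0899 for FASTKD2 and 0.126 for FASTK).

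FASTKD1, which was high in footprints, stood at -0.22 and 0.20 in the mRNA pulldowns, on either side of 0 (fitted -0.01 ± 0.14, adjusted p = 0.955, edgeR). FASTKD5, which only RNA-seq separates from UBOX5, stood at -0.22 and -0.29 (-0.26 ± 0.11, adjusted p = 0.0565), and TBRG4 was again near 0 at -0.07 and -0.11. FASTKD3 was the lowest member, at -0.32 and -0.59 (-0.45 ± 0.11, adjusted p = 0.00517). TMM factors moved the median of all genes from -0.28 to 0.01, ended the FASTKD3 call (-0.16, adjusted p = 0.223) and turned FASTKD1, FASTKD5 and TBRG4 to 0.29, 0.04 and 0.21, none of which passed.

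The members called in the LARP4 null line were those called in wild type. FASTKD2 (0.58 ± 0.14, adjusted p = 0.00909) and FASTK (0.37 ± 0.09, 0.0110) were enriched, against 22.8% of genes, and FASTKD3 was depleted (-0.29 ± 0.10, 0.0430), against 30.0%. The FASTKD3 call was lost in 6 of 8 alternatives, among them TMM factors (adjusted p = 0.126), and the FASTK call was lost with only the libraries of this line (0.128) and without the lysate terms (0.0634), while FASTKD5 passed without LARP4null replicate 2 (-0.31, adjusted p = 0.0159). Replicate values were 0.61 and 0.55 for FASTKD2, 0.31 and 0.43 for FASTK and -0.30 and -0.28 for FASTKD3. For the difference from wild type edgeR called 0% of 13856 genes, against 2270 at an unadjusted p of 0.05, and DESeq2 called 4 higher and 491 lower, with no member among them. The members differed by -0.10 ± 0.20 (FASTKD2) to 0.16 ± 0.15 (FASTKD3), with adjusted p of 0.514 or more.

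Without cycloheximide the single pair of libraries gave log2 values of 0.67 for FASTKD2, 0.42 for FASTK, 0.34 for TBRG4, 0.04 for FASTKD5, -0.24 for FASTKD1 and -0.53 for FASTKD3, with no replicate check. FASTKD2, FASTK and FASTKD3 fell between the wild-type replicates, FASTKD1 just below them, and TBRG4 and FASTKD5 above them. The median over all genes was -0.11 in this pair, and -0.27 and -0.30 in the wild-type pairs.

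In the AKAP1 null line 5 members were more enriched at the OMM than in wild type, and FASTK was less enriched. The difference passed the test upwards for FASTKD1, FASTKD2, FASTKD5, FASTKD3 and TBRG4, where 6.52% of 13856 genes did, and downwards for FASTK, where 7.96% did (903 and 1103 genes, or 285 and 1424 with TMM factors). The median over the members was 0.98, against 0.19 over all genes, and TMM factors lowered the latter by 0.17.

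FASTKD1 reached 1.34 and 1.66 in the AKAP1 null line, with 2406 counts in each input and 6891 and 9950 in the pulldowns. It differed from wild type by 1.51 ± 0.20 (adjusted p = 0.00193, edgeR), a fold of 2.85, at rank 28 of 13856 genes. FASTKD2 reached 1.79 and 2.37, with 2695 and 1998 counts in the inputs and 10573 and 13454 in the pulldowns. It differed from wild type by 1.39 ± 0.20 (adjusted p = 0.00292, edgeR), a fold of 2.63, at rank 53. For both genes the replicates of the 2 lines did not overlap, and all 10 alternatives kept the call, with adjusted p up to 0.0440 for FASTKD1 and 0.0480 for FASTKD2.

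FASTKD5 and FASTKD3 changed from values below 0 in wild type to values above 0. FASTKD5 stood at 0.64 and 0.85 in the AKAP1 null line and differed by 1.01 ± 0.15 (adjusted p = 0.00320, edgeR), a fold of 2.01. FASTKD3 stood at 0.61 and 0.39 and differed by 0.95 ± 0.15 (adjusted p = 0.00426), a fold of 1.93. On the TMM scale the same differences were 0.84 and 0.78 and passed, while the wild-type value of FASTKD5 was then 0.04. Without wild-type replicate 2 neither passed (adjusted p = 0.0605 for FASTKD5 and 0.0858 for FASTKD3), nor did FASTKD5 without AKAP1null replicate 2 (0.0575) or FASTKD3 without AKAP1null replicate 1 (0.0590).

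TBRG4 stood at 0.32 and 0.36 in the AKAP1 null line, above both wild-type replicates. It differed by 0.43 ± 0.11 (adjusted p = 0.0396, edgeR), a fold of 1.35, and this call was lost in 9 of 10 alternatives, among them TMM factors (0.26, adjusted p = 0.280).

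FASTK went the other way. It stood at -0.32 and -0.29 in the AKAP1 null line, with 1467 and 1103 counts in the inputs and 1331 and 1177 in the pulldowns, below both wild-type replicates. The difference from wild type was -0.73 ± 0.13 (adjusted p = 0.00900, edgeR), a fold of 0.602. It was -0.90 with TMM factors (adjusted p = 0.00229), and -0.64 to -0.82 with any 1 of the 4 lysates left out, where it did not pass (adjusted p = 0.0660 to 0.166).

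Each of the 6 members also passed the test within the AKAP1 null line, 5 upwards (13.9% of genes) and FASTK downwards (28.1%), with 1930 and 3892 genes called, or 2772 and 2865 with TMM factors. Of the 363 nuclear mitochondrial genes with proteins over 400 residues, 65.3% were called upwards and 10.5% downwards, with a median of 0.95. FASTK stood at -0.31 ± 0.09 (adjusted p = 0.0305, edgeR), and at -0.18 with TMM factors (adjusted p = 0.168). Without AKAP1null replicate 1 FASTK, FASTKD3 and TBRG4 did not pass (adjusted p = 0.211, 0.127 and 0.0958), and without replicate 2 these and FASTKD5 did not (0.182, 0.0581, 0.133 and 0.0510). The order was the same in both AKAP1 null replicates, with FASTKD2 first, then FASTKD1, FASTKD5, FASTKD3, TBRG4 and FASTK. FASTK came directly after FASTKD2 in both wild-type replicates.

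Compared with the LARP4 null line, 4 members were higher in AKAP1 null cells, where 1.72% of genes were, and FASTK was lower, where 2.94% were. Of the 363 nuclear mitochondrial genes with proteins over 400 residues, 49.9% were higher and 0.826% lower, with a median of 0.72. The differences were 1.5 ± 0.20 for FASTKD2 (adjusted p = 0.00457), 1.43 ± 0.20 for FASTKD1 (0.00577), 0.89 ± 0.15 for FASTKD5 (0.0115), 0.79 ± 0.15 for FASTKD3 (0.0194) and -0.68 ± 0.13 for FASTK (0.0244). TBRG4 did not pass (0.38 ± 0.11, adjusted p = 0.110). Without AKAP1null replicate 2 none of these passed, FASTKD2 having an adjusted p of 0.0657, and without replicate 1 only FASTKD2 and FASTKD1 did (0.0156 and 0.0412). TBRG4 passed without LARP4null replicate 1 (0.0158) or replicate 2 (0.0362). This comparison and the one with wild type share the AKAP1 null libraries.

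**Figure D3:**
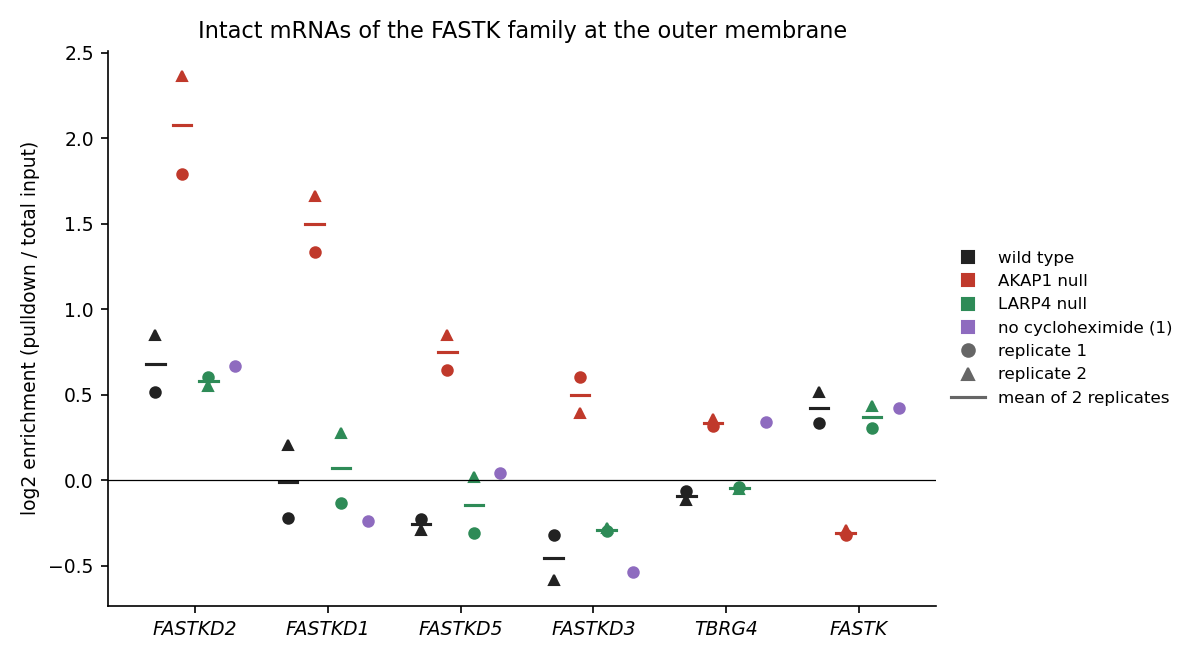
Log2 enrichment of the members' intact mRNAs at the OMM in wild-type, AKAP1 null and LARP4 null cells with cycloheximide and in cells without it. Points are replicates, lines the mean of 2, and the group without cycloheximide has 1. In AKAP1 null cells FASTKD2, FASTKD1, FASTKD5, FASTKD3 and TBRG4 lie above both wild-type replicates, and FASTK (-0.32 and -0.29) lies below them.

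In the total inputs no member was called between AKAP1 null and wild type. Values ran from -0.13 ± 0.18 (FASTKD3) to 0.17 ± 0.11 (FASTKD5), with adjusted p of 0.973 or more. That test called 0% of 13977 genes in edgeR, against 489 at an unadjusted p of 0.05, and DESeq2 called 8 higher and 7 lower.

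Between LARP4 null and wild type edgeR called 0.0143% of genes in the total inputs and no member. FASTK stood at 4.86 and 4.55 FPKM in LARP4 null cells, below the 8.26 and 6.997 FPKM of wild type, a log2 difference of -0.68 ± 0.13 (unadjusted p = 0.00132, adjusted p = 0.990). DESeq2 called it (-0.67, adjusted p = 0.0131), as did edgeR with no filter on low counts (-0.66, adjusted p = 0.0370). The other members differed by 0.13 to 0.29.

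Among mitochondrial genes that encode long proteins the family covered much of the range. The 242 nuclear mitochondrial genes with a protein over 400 residues that were tested at the OMM had a median footprint enrichment of 0.29 and quartiles of -0.24 and 1.16. FASTKD2 was above 91.1% and FASTKD1 above 84.4% of the 237 that are not members, FASTK above 58.2%, TBRG4 above 30.8% and FASTKD3 above 9.28%.

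In the AKAP1 null comparison the 363 long mitochondrial genes tested had a median of 0.73, with 57.3% called higher than in wild type and 1.65% lower. FASTKD1 was above 93.8% of the 357 others, FASTKD2 above 89.1%, FASTKD5 above 63.6%, FASTKD3 above 59.9% and TBRG4 above 32.8%, whereas FASTK was above 3 of the 357. The 656 mitochondrial genes with proteins of 400 residues or fewer had a median of -0.27, with 33.4% called lower, and the FASTK value was below that median.

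**Figure D4:**
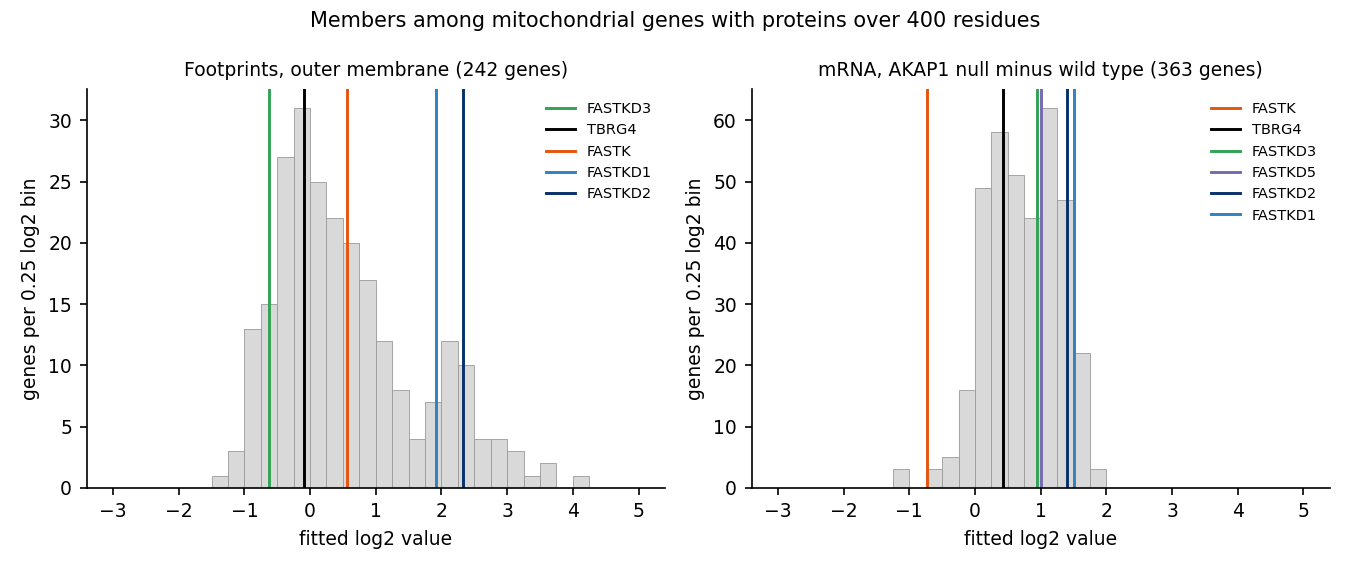
Members (lines) among nuclear mitochondrial genes with proteins over 400 residues (grey, genes per bin of 0.25 log2 units). The left panel shows fitted footprint enrichment at the OMM of 242 genes, and the right panel AKAP1 null minus wild-type mRNA enrichment of 363 genes. FASTKD2 and FASTKD1 lie in the upper part of both distributions, and FASTK lies near the lower end of the right one.

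Footprint and mRNA values at the OMM come from different lines and assays, and their difference was not tested. Side by side, FASTKD2 had 2.34 in footprints, 0.68 in wild-type mRNA and 2.08 in AKAP1 null mRNA. FASTKD1 had 1.91, -0.01 and 1.5 in that sequence, so both genes that were high in footprints had the highest mRNA values in the AKAP1 null line. FASTK had 0.56, 0.42 and -0.31, TBRG4 had -0.10, -0.09 and 0.34, and FASTKD3 had -0.63, -0.45 and 0.50.

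**Figure D5:**
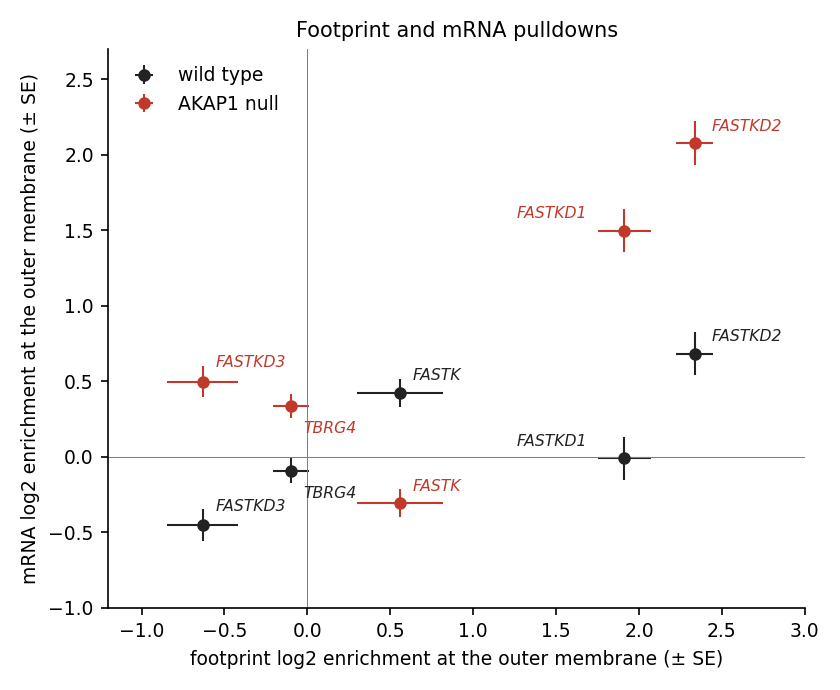
Fitted log2 enrichment of footprints (x axis) and intact mRNAs (y axis) at the OMM for the 5 members with both. Bars are SE, black points are wild-type and red points AKAP1 null mRNA. FASTKD2 and FASTKD1 stand at 0.68 and -0.01 in wild type and at 2.08 and 1.5 in AKAP1 null cells, and FASTK at 0.42 and -0.31.

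The members also differed in the genes whose pattern was most like theirs, by the root mean square difference of log2 enrichment over the 12 lysates with cycloheximide among 6431 genes. Nearest to FASTKD2 were MTIF2 (0.23), POLRMT (0.24) and ELAC2 (0.25), which encode a mitochondrial translation initiation factor, the mitochondrial RNA polymerase and a tRNA-processing enzyme. Near to FASTKD1 were DHTKD1 (0.33) and AASS (0.33), both mitochondrial enzymes, with FASTKD2 at 0.49 and rank 18. Nearest to TBRG4 were LIG3 (0.13), a DNA ligase that also acts in mitochondria, SUPV3L1 (0.13), a mitochondrial RNA helicase, and POLDIP3 (0.15).

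FASTKD3 was nearest to IDH3G (0.18), a subunit of mitochondrial isocitrate dehydrogenase, RAD23B (0.19) and AHCY (0.20), of which IDH3G alone is on the mitochondrial list. FASTK was nearest to ZNF771 (0.25), E2F1 (0.25) and CTNNBIP1 (0.25), none of them on that list. Among members, TBRG4 and FASTKD3 differed by 0.30 and TBRG4 and FASTKD2 by 1.31. Distances depend on how common a pattern is, as the median distance to all genes was 0.57 from TBRG4 and from FASTKD3 and 1.597 from FASTKD2.

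Of 49 other genes that bind, process, modify or degrade mitochondrial RNA, 36 were tested in footprints at the OMM. There 15 were enriched and 5 depleted (17.0% and 46.1% of all genes), 16 did not pass, and the median was 0.06 against -0.38 over all genes. Of the 688 nuclear mitochondrial genes tested there 47.4% were enriched and 10.3% depleted, with a median of 0.32. Without the lysate terms 10 of the listed genes were called in either direction. The largest values were those of METTL17 (2.84 ± 0.15), a factor of mitochondrial ribosome assembly, PTCD3 (2.72 ± 0.10), a pentatricopeptide protein of the small mitochondrial ribosomal subunit, and ELAC2 (2.42 ± 0.09). The smallest that passed were those of OSGEPL1 (-0.52 ± 0.21), a tRNA-modifying enzyme, ANGEL2 (-0.64 ± 0.18) and NSUN3 (-0.74 ± 0.26), a tRNA methyltransferase whose replicates were -0.04 and -1.17.

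In the AKAP1 null comparison 24.3% of 1019 nuclear mitochondrial genes were higher than in wild type and 22.1% lower, with a median of 0.08. Among the 363 with proteins over 400 residues 57.3% were higher and 1.65% lower, with a median of 0.73. Of the 49 listed genes 48 were tested, 24 were higher and 3 lower (6.52% and 7.96% of all genes), with a median of 0.51. The number called in either direction was 27, and it was 11 without wild-type replicate 1, wild-type replicate 2 or AKAP1null replicate 2, 17 without AKAP1null replicate 1 and 9 without the lysate terms. PTCD3 (1.55, adjusted p = 0.000718, edgeR), ELAC2 (1.53, 0.000642) and METTL17 (0.99, 0.00893) were higher, while OSGEPL1, ANGEL2 and NSUN3 stood at 0.30 to 0.39 and did not pass. The FASTKD1 and FASTKD2 differences of 1.51 and 1.39 lay close to those of PTCD3 and ELAC2. None of the 48 was called between LARP4 null and wild type, where edgeR called 0% of all 13856 genes.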

How the data were processed

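Data of 26 libraries were analysed from the deposited tables, all on GRCh38. For ribosome profiling the authors removed rRNA and tRNA reads with Bowtie, aligned footprints with TopHat and deposited estimated counts per gene from plastid, in which a footprint is spread over its central positions, positions that do not map uniquely are masked and overlapping genes are merged. The authors also deposited RPKM over the counted positions, used here for levels. For RNA-seq the authors deposited raw counts per gene, from STAR and featureCounts, beside an FPKM column that was not used, since FPKM was computed here from counts and exon length, and the strand setting of the counting is not given in the sources used here. The labels name polyA RNA, whereas the study's methods name a ribosomal depletion kit.

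Estimated counts were rounded to whole numbers. Enrichment was fitted with edgeR 4.0.16 (R 4.3.3) with 1 term per lysate and a pulldown effect per location or line, library totals as the scale, and Benjamini-Hochberg adjustment over all genes tested, two-sided. Footprint tests took genes with at least 64 footprints in every total input compared, RNA-seq tests genes with a mean of at least 64 counts. Total inputs were compared with TMM factors. Per-lysate log2 values added 0.5 counts. DESeq2 1.42.0, TMM factors, other count minimums, other counted regions, other sets of libraries and leaving out each lysate were alternatives, and merged footprint entries were tested too, an alternative chosen after seeing the data. Only the OMM footprint fit and the AKAP1 null mRNA fit were tested on simulated counts. Unlike the data, those counts had a fixed spread, no lysate effects and few changed genes, so they do not check the calls made here.

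The numbers of a total input and its pulldown mark 1 lysate, and their deviations from the group mean correlated at 0.60 to 0.88. The named genes were the members, AKAP1 and LARP4, the 3 nearest genes of each member in pattern (1 is not reported here), and the 3 largest and 3 smallest listed RNA genes that passed at the OMM. The members and lists were chosen with earlier results of these data known. Protein lengths and identities came from GENCODE 44 translations in place of RefSeq proteins, by global alignment with BLOSUM62 in Biopython 1.88.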

Additional observations from a re-analysis of the deposited data

Results flagged for a closer look

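The effects below differed between locations or lines by a test of the difference itself, in edgeR's quasi-likelihood test at an adjusted p of 0.05. Some of these calls were lost in alternatives, as described above. The TBRG4 call between AKAP1 null and wild type was lost in 9 of 10, and the FASTK call between ER and cytosol in 6 of 12. With 2 samples per group no check for a sample far from the others was possible.

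Between OMM and ER, footprint enrichment was higher at the OMM by 3.03 for FASTKD2, 2.48 for FASTKD1, 1.28 for FASTK and 0.82 for TBRG4, in log2 units. Between OMM and cytosol it was higher at the OMM by 2.56 for FASTKD2 and 2.1 for FASTKD1, and the difference was -0.87 for FASTKD3. Between ER and cytosol the differences were -1.10 for TBRG4, -1.05 for FASTKD3, -0.63 for FASTK and -0.47 for FASTKD2.

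Between AKAP1 null and wild-type cells, mRNA enrichment at the OMM differed by 1.51 for FASTKD1, 1.39 for FASTKD2, 1.01 for FASTKD5, 0.95 for FASTKD3, 0.43 for TBRG4 and -0.73 for FASTK. Between AKAP1 null and LARP4 null cells it differed by 1.5 for FASTKD2, 1.43 for FASTKD1, 0.89 for FASTKD5, 0.79 for FASTKD3 and -0.68 for FASTK.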

How the results depend on the processing

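Over all alternatives, 633 values of single members kept their direction and side of the threshold, 100 kept the direction and lost the call, 15 gained one and 43 changed sign. The causes were not tested. FASTK and FASTKD3 had 15 to 55.4 footprints in their OMM pulldowns, which limits the precision of their values, and groups had at most 2 replicates.

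With TMM factors and with DESeq2, in that order, the sign changed to 0.092 and 0.058 for FASTKD1 at the ER, 0.25 and 0.26 for TBRG4 at the OMM, -0.072 and -0.080 for FASTKD3 between OMM and ER, 0.083 and 0.063 for TBRG4 between OMM and cytosol, and 0.24 and 0.21 for FASTKD1 and 0.14 and 0.13 for FASTKD2 between ER and cytosol. In wild-type mRNA it changed to 0.29 and 0.28 for FASTKD1, 0.037 and 0.027 for FASTKD5 and 0.21 and 0.20 for TBRG4, and in LARP4 null mRNA to 0.044 and 0.036 for TBRG4. Between LARP4 null and wild type it changed to -0.13 and -0.12 for FASTKD1, -0.045 and -0.043 for FASTKD3, -0.092 and -0.091 for FASTKD5 and -0.16 and -0.16 for TBRG4. With either tool 1 member was called at the ER and 1 between ER and cytosol.

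With each lysate left out in turn, signs changed within -0.40 to 0.19 for FASTK in the cytosol, -0.22 to 0.20 for FASTKD1 in wild type, and -0.13 to 0.27 for FASTKD1 and -0.31 to 0.016 for FASTKD5 in the LARP4 null line. Between LARP4 null and wild type they changed within -0.14 to 0.037 for FASTK, -0.13 to 0.29 for FASTKD1, -0.27 to 0.065 for FASTKD2 and -0.048 to 0.28 for FASTKD5. In the AKAP1 null total inputs they changed within -0.12 to 0.049 for FASTK, -0.26 to 0.013 for FASTKD1, -0.17 to 0.0089 for FASTKD2 and -0.39 to 0.094 for FASTKD3. Members called then numbered 3 to 5 at the ER, 2 to 4 between ER and cytosol, 0 to 3 in wild type, 2 to 3 in AKAP1 null cells, 2 to 4 between AKAP1 null and wild type and 0 to 6 between AKAP1 null and LARP4 null, and listed RNA genes called between AKAP1 null and wild type numbered 11 to 17.

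A total input and its pulldown came from 1 lysate, and without this replicate block fewer calls were made: 3 members at the ER, 2 between OMM and ER, 1 between OMM and cytosol, 1 between ER and cytosol, 3 in AKAP1 null, 1 in LARP4 null, 2 between AKAP1 null and wild type and 1 between AKAP1 null and LARP4 null, with 10 listed RNA genes at the OMM and 9 between AKAP1 null and wild type. Replicate numbers were not taken to pair different lines. Total inputs of the same number correlated at 0.19, 0.34 and -0.07, and a batch shared between lines was not tested. A replicate block on the total inputs called 0 members, with FASTK at -0.68 (adjusted p = 0.909, edgeR) between LARP4 null and wild type.

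A higher minimum of footprints left 1 member called between OMM and cytosol and 2 between ER and cytosol, where fewer members were tested. With only the libraries of the lines compared, 1 member was called in LARP4 null and 2 between AKAP1 null and LARP4 null. In the total inputs of LARP4 null against wild type 1 member was called with DESeq2 and 1 with no filter on low counts. The median footprint level of the members was 12.03 RPKM over the CDS and 4.38 RPKM over all exons.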
